A study of Mus musculus with 6 samples.

Results

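The myosin heavy chain genes Myh1, Myh2, Myh3, Myh4, Myh6, Myh7, Myh8, Myh9, Myh10 and Myh11 were followed in mouse fibrosarcoma cells with and without an shRNA against Rras2. They were chosen by gene symbol from 19505 genes on the arrays, with the brightest probe set of a symbol selected on its mean signal, and all 10 were measured, each by only 1 probe set. The knockdown cells (shRras2, replicates 4, 5 and 6, 1 array each) carried the lentiviral shRNA sh#89, and the control cells (pLKO, replicates 1, 2 and 3) the empty vector. Both kinds came from fibrosarcoma cells of C57BL/6 background that carry Rras2(Q72L), a mutant form of a RAS-related GTPase, and were grown in serum-containing medium. Because 1 shRNA was used, loss of Rras2 and effects of that shRNA on other targets cannot be told apart. The labels number the knockdown arrays after the controls, so a batch along these numbers and the group cannot be told apart. They do not say that a group's arrays were separate cultures, so each p-value is set against a spread that may be technical.

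Myosin II is the motor that pulls on actin filaments. Its heavy chains carry the ATP-splitting motor head and a coiled-coil tail, and light chains bind at the neck. Sarcomeric heavy chains assemble the thick filament of striated muscle, and mammals switch between them in development: Myh3 encodes the embryonic and Myh8 the perinatal chain, which the adult fast chains encoded by Myh2 (IIa), Myh1 (IIx) and Myh4 (IIb) later replace in limb muscle. Myh7 encodes the slow chain, which is also the beta chain of the heart, and Myh6 the cardiac alpha chain. Myh11 encodes the smooth muscle chain, and Myh9 and Myh10 the non-muscle chains A and B that drive contraction and division in most cells. In regenerating muscle and in cultured myotubes the developmental chains are among the earliest sarcomeric heavy chains to appear.

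The fast and developmental genes lie side by side on mouse chromosome 11, in the order Myh3, Myh2, Myh1, Myh4, Myh8 and Myh13, within 293 kb. The stretches before the starts of Myh3, Myh8, Myh1, Myh4 and Myh2 are shown because 3 of these neighbours rose and the others did not pass the test. Each sequence holds the 250 bases 5′ of the start in the RefSeq promoter table (build GRCm38.p6, plus strand), which held 9 of the 10 genes. For Myh3 the start in that table lies 27 bases inside the gene as the RefSeq gene table gives it, so the last 27 bases of its window belong to the annotated gene. Capitals mark every match, on either strand, to CANNTG (the E-box bound by MYOD-family factors), the MEF2 motif, the CArG box bound by SRF, CATTCC (the MCAT element) or TATAAA. The windows are chr11:67078050-67078299 for Myh3, chr11:67276874-67277123 for Myh8, chr11:67199852-67200101 for Myh1, chr11:67237562-67237811 for Myh4 and chr11:67170777-67171026 for Myh2.
Myh3: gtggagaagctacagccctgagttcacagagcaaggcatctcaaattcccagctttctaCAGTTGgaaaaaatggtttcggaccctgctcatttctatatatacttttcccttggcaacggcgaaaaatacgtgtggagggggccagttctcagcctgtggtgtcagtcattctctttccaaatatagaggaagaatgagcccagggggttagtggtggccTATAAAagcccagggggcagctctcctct
Myh8: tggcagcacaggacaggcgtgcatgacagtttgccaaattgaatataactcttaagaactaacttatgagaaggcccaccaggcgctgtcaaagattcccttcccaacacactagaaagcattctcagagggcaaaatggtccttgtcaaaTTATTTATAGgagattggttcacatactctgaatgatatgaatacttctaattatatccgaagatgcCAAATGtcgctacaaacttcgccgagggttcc
Myh1: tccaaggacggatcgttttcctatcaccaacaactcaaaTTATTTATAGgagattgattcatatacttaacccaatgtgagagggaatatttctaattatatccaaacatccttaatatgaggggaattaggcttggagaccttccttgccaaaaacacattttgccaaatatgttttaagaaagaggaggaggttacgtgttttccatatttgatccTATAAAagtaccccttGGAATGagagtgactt
Myh4: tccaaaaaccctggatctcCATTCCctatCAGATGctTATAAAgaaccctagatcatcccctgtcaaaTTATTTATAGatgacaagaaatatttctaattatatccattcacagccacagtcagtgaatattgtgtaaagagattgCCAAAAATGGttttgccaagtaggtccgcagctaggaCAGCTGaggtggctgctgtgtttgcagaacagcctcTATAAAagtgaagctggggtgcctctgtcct
Myh2: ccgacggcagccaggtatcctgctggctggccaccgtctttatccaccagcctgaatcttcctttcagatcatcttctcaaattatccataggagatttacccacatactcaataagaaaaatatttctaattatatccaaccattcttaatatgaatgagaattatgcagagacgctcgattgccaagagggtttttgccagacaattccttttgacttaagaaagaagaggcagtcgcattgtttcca

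The MEF2 motif was found in the windows of Myh8, Myh1 and Myh4 as the same letters, TTATTTATAG, at bases -99 to -90, -211 to -202 and -182 to -173 counted from the start. Of all 32851 promoter windows of this length in the table, 2.92% held a MEF2 motif. Inside each of these 3 matches lies a TATAAA match on the other strand. Myh3 and Myh2 held none in this window. Myh4, which holds these letters, did not pass the test. An E-box was found once in Myh3 and in Myh8, 2 times in Myh4 and not in Myh1 or Myh2, while the window of Myh13, not printed here, held 2 and no MEF2 motif. Of all windows, 66.2% held an E-box. A TATAAA lay at -29 to -24 in Myh3, -32 to -27 in Myh1 and -31 to -26 in Myh4, and 12.4% of all windows held a TATAAA anywhere. Only the Myh4 window had a CArG box (1.47% of all windows), and Myh1 and Myh4 each had a CATTCC (12.6%). The longest run shared base for base between 2 of these windows was one of 22 bases in Myh1 and Myh8, tcaaaTTATTTATAGgagattg, which includes the MEF2 motif. Runs of similar length joined Myh1 to genes that did not pass, 21 bases with Myh2 and 20 with Myh4. Myh2 and Myh4, neither of which passed, shared 21. Myh3 shared 10 bases with Myh1 and 8 with Myh8, and its longest run was 11 with Myh4. These matches describe letters only, and no factor binding was measured here.

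Myh3, Myh8 and Myh1 rose in the shRras2 cells by large amounts, Myh7 rose by a small amount close to the threshold, and none of the other 6 passed the test. Values are log2 RMA signals, differences are shRras2 minus pLKO, and the test is limma over all 19505 genes with a Benjamini-Hochberg adjusted p under 0.05. Of all genes, 5.21% passed, 584 higher (2.99%) and 433 lower (2.22%), or 514 higher and 595 lower after median centring of the arrays. Of the heavy chain genes 4 of 10 passed as higher and 0 as lower. The family was taken up with the rises of Myh3 and Myh8 in these arrays already known, so this count and the p-values below describe these arrays and lend no independent support. The median difference over the 10 was 0.39, against -0.01 over all genes. Levels of different genes come from different probes and cannot be ranked against each other.

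**Figure D1:**
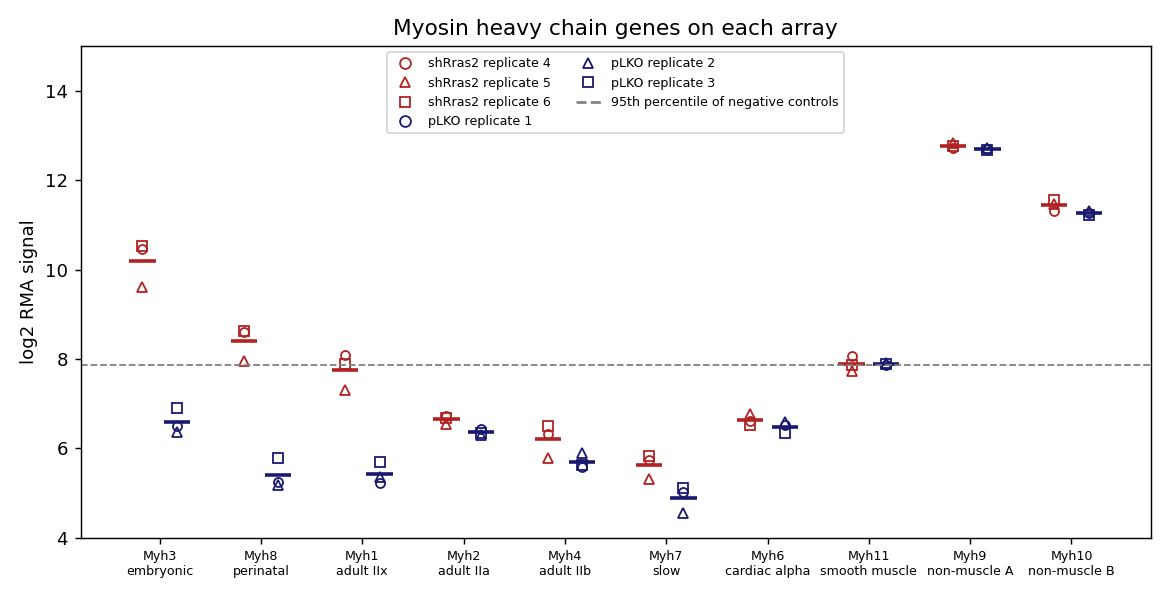
Log2 RMA signal (y axis) of the 10 heavy chain genes on each of the 6 arrays, with shRras2 left of pLKO, group means as bars and the 95th percentile of the negative-control probe sets (7.86) as a dashed line. The groups stand far apart for Myh3, Myh8 and Myh1 and nearly coincide for Myh11 and Myh9.

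The targeted gene was checked first. Rras2 had 9.09, 9.69 and 9.21 on shRras2 replicates 4, 5 and 6, against 10.67, 10.75 and 10.82 on pLKO replicates 1, 2 and 3. Every shRras2 array lay below every pLKO array, and replicate 5 kept the most signal. The difference was -1.41 ± 0.14 (SE, limma adjusted p = 0.00163), and an exact two-sided permutation test over the 6 arrays reached its lowest possible value, p = 0.1. The median gene signal was 7.22 to 7.28 on the 6 arrays, and replicate 5 was the shRras2 array nearest to the controls on the first principal component. Among fibroblast markers, Vim was at 13.79 ± 0.05 in shRras2 cells and 13.84 ± 0.03 in pLKO cells (SD, n = 3 each), and Col3a1 and Pdgfrb had means above 11 in both. Lum, Fap, Dcn, Thy1 and Col1a2 were below 7.86 in both groups, so the fibroblast label rests on part of the 11 markers measured. Of 5 macrophage, 5 endothelial and 6 epithelial markers, 0 had a mean above 7.86 in either group. The macrophage marker Cd14 came nearest, with 7.70, 7.73 and 7.92 on pLKO replicates 1, 2 and 3. It was lower in shRras2 cells by 0.57 and did not pass (limma adjusted p = 0.0544).

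The embryonic gene Myh3 had the largest fitted difference in the family. It had 10.46, 9.61 and 10.52 in shRras2 cells, replicates 4, 5 and 6, against 6.50, 6.37 and 6.90 in pLKO cells, replicates 1, 2 and 3. The lowest shRras2 array stood well above the highest control. Its difference of 3.61 ± 0.24 (SE, limma adjusted p = 0.000223, 95% interval 3.07 to 4.14) corresponds to a 12.2-fold higher signal and was the second largest rise of all genes. Against the pLKO mean the signal was 14.6-fold on replicate 4, 8.10-fold on replicate 5 and 15.2-fold on replicate 6. The pLKO mean of Myh3 exceeded 83.2% of the 5222 negative-control probe sets and the shRras2 mean 99.1%. Fold changes from such low control levels are compressed and can understate a change.

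The perinatal gene Myh8 followed the same order of arrays. It had 8.59, 7.96 and 8.62 in shRras2 cells, against 5.26, 5.17 and 5.78 in pLKO cells. The groups were again far apart, with replicate 5 lowest among the knockdown arrays and replicate 3 highest among the controls. The difference was 2.99 ± 0.21 (SE, limma adjusted p = 0.000262), a 7.93-fold higher signal and the sixth largest rise of all genes. The pLKO mean of 5.40 exceeded 60.4% of the negative controls, close to their median of 5.01, and the shRras2 mean of 8.39 exceeded 96.8%. Because the pLKO means of Myh3 and Myh8 both lay below 7.86, the true sizes of the rises cannot be ordered from these arrays.

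Among the adult fast genes, Myh1 passed the test and Myh2 and Myh4 did not, and the differences between these genes were not tested. Myh1, the IIx chain, had 8.09, 7.30 and 7.89 in shRras2 cells, against 5.23, 5.37 and 5.69 in pLKO cells. Its groups did not overlap, and its difference of 2.33 ± 0.20 (SE, limma adjusted p = 0.000799) made a 5.03-fold higher signal and ranked it 12 among all rises. Both group means of Myh1 lay below 7.86, so this size is imprecise. Myh4, the IIb chain, had 6.32, 5.79 and 6.49 in shRras2 cells, against 5.58, 5.89 and 5.62 in pLKO cells. Replicate 5 fell inside the control range, and the difference of 0.50 ± 0.17 did not pass (SE, limma adjusted p = 0.146). Without shRras2 replicate 5 it was 0.71 and passed (limma adjusted p = 0.0163). Myh2, the IIa chain, had 6.73, 6.55 and 6.68 in shRras2 cells, against 6.44, 6.31 and 6.35 in pLKO cells. Its groups did not overlap, but the difference of 0.28 ± 0.08 did not pass (SE, limma adjusted p = 0.0994). Both stayed below 7.86 on every array.

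The slow gene Myh7 had 5.73, 5.31 and 5.83 in shRras2 cells, against 5.02, 4.56 and 5.11 in pLKO cells. The groups did not overlap, but both lay in the range of the negative controls, whose median was exceeded by the shRras2 mean of 5.62 and not by the pLKO mean of 4.90. Its difference of 0.72 ± 0.17 only just passed (SE, limma adjusted p = 0.0468). It passed in 1 of the 6 fits that left out 1 array, the one without shRras2 replicate 5, with adjusted p up to 0.161 in the others, and the call was also lost under a second quantile normalization, median centring and the test of every transcript probe set. Myh6, its cardiac neighbour on chromosome 14, had 6.61, 6.78 and 6.52 in shRras2 cells, against 6.51, 6.59 and 6.34 in pLKO cells. These ranges overlapped, and the difference of 0.15 ± 0.10 did not pass (SE, limma adjusted p = 0.467).

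The smooth muscle and non-muscle genes differed little. Myh11 had 8.07, 7.74 and 7.87 in shRras2 cells, against 7.87, 7.92 and 7.89 in pLKO cells, with a difference of 0.00 ± 0.10 (SE, 95% interval -0.22 to 0.22). Its mean sat just above 7.86 in shRras2 and in pLKO cells. Myh9, the non-muscle A chain, had 12.73, 12.83 and 12.75 in shRras2 cells, against 12.70, 12.72 and 12.68 in pLKO cells. The groups did not overlap, yet the difference was only 0.07 ± 0.07 (SE, 95% interval -0.10 to 0.24, limma adjusted p = 0.695). Myh10, the non-muscle B chain, had 11.31, 11.47 and 11.54 in shRras2 cells, against 11.27, 11.31 and 11.21 in pLKO cells, and its difference of 0.18 ± 0.09 did not pass (SE, 95% interval -0.02 to 0.37, limma adjusted p = 0.318). For these 3 genes the upper bounds of the intervals lie below the lower bounds for Myh3, Myh8 and Myh1, which are 3.07, 2.52 and 1.88. In all, the groups did not overlap for 6 of the 10 genes, each higher in shRras2 cells (Myh1, Myh2, Myh3, Myh7, Myh8 and Myh9). Over all genes this held for 25.5%, and for 11.6% in the higher direction.

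**Figure D2:**
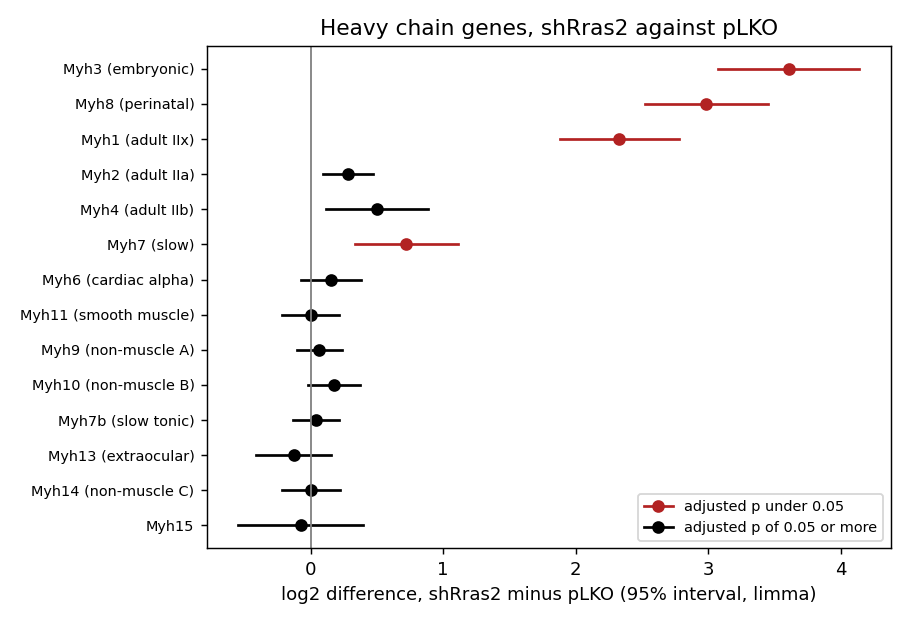
Log2 difference, shRras2 minus pLKO (x axis), with 95% limma intervals for the 10 heavy chain genes and the other 4 measured myosin II heavy chain genes, those past the threshold in red. Myh3, Myh8 and Myh1 stand between 2.33 and 3.61, and the remaining 11 between -0.13 and 0.72.

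The other 4 myosin II heavy chain genes gave no call. Myh7b, a slow-tonic chain, differed by 0.04 ± 0.08, Myh14, the non-muscle C chain, by 0.00 ± 0.10, and Myh15 by -0.07 ± 0.21 (SE). Myh13, the extraocular muscle chain and last gene of the cluster, had 7.32, 7.48 and 7.42 in shRras2 cells, against 7.30, 7.80 and 7.50 in pLKO cells, a difference of -0.13 ± 0.13 (SE, limma adjusted p = 0.651). The rises in the cluster were thus interleaved with genes that did not pass, with Myh2 lying between Myh3 and Myh1, Myh4 between Myh1 and Myh8, and Myh13 beyond Myh8. Both group means of Myh13, Myh14 and Myh15 lay below 7.86, so a change in these genes could be missed. Myh3 spans chr11:67078273-67102291, Myh1 spans chr11:67200102-67224577 and Myh8 spans chr11:67277124-67308634 in GRCm38.p6.

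Genes that flank the cluster were examined as a readout that did not enter the choice of the family, although this window was set after values had been seen. Within 500 kb of the cluster, 9 other genes were measured, 4 before Myh3 and 5 beyond Myh13. Of these, 0 passed limma's threshold and 1 had an unadjusted p under 0.05 (Sco1). Over all 19505 genes, 5.21% passed and 3733 had an unadjusted limma p under 0.05. Counts this low among 9 genes therefore do not set the flanking genes apart. Differences ran from -0.26 for Sco1, a mitochondrial copper chaperone gene, to 0.18 for Glp2r, a peptide hormone receptor gene. Sco1, the nearest of them to Myh3, had 7.59 ± 0.16 in shRras2 cells and 7.86 ± 0.02 in pLKO cells (SD, n = 3 each, limma adjusted p = 0.170). The heavy chain genes of the cluster resemble each other closely in sequence, the probe sequences were not used here, and hybridization of one transcript to the probes of another was not tested.

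**Figure D3:**
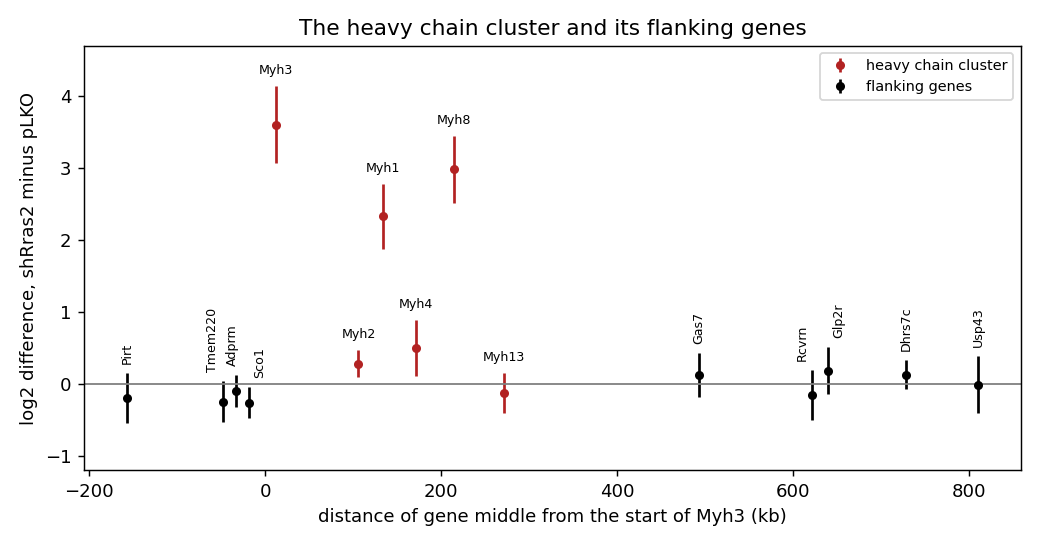
Log2 difference, shRras2 minus pLKO (y axis), with 95% limma intervals for genes in and around the chromosome 11 cluster, plotted by the distance of their middle from the start of Myh3 in kb. Myh3, Myh1 and Myh8 rise above 2 while the 9 flanking genes, most of them dim, stay between -0.26 and 0.18.

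Genes whose profile over the 6 arrays was closest to Myh3 and Myh8 were found by the root mean square difference of log2 deviations from the pLKO mean. Closest to Myh3 were Myl1, a fast-muscle light chain (0.27), Chrdl1, a secreted BMP antagonist (0.34), Myh8 (0.45), the light chain gene Mylpf (0.46) and the myoblast fusion gene Mymk (0.47). Closest to Myh8 were Mymk (0.19), Mylpf (0.27), Acta1, which encodes skeletal actin (0.29), the Z-disc gene Myoz2 (0.39) and Chrdl1 (0.40). The measure rests on 6 arrays in 2 groups, so it mostly picks genes with a rise of similar size.

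Partners of the heavy chains were described next, beside shares over all genes of 2.99% higher and 2.22% lower. Of 8 measured muscle light chain genes and kinases, 4 rose, Myl1 by 3.86, Mylpf by 3.09, Myl4, the embryonic and atrial light chain, by 1.80 and Myl6b by 0.55, and 0 fell (median 0.42). The call of Myl6b held in 2 of the 6 fits that dropped an array, those without pLKO replicate 2 and shRras2 replicate 5. The ventricular and slow light chain genes Myl2 (0.29 ± 0.15) and Myl3 (0.06 ± 0.08) did not pass (SE, limma adjusted p = 0.361 and 0.753). Of 17 thick filament partners and chaperones 3 rose and 0 fell (median 0.20). Mybph, which encodes a myosin-binding protein, had 8.58, 7.59 and 8.13 in shRras2 cells, against 6.50 ± 0.08 in pLKO cells (SD, n = 3), a rise of 1.60. Smyd1, a muscle methyltransferase that takes part in myosin assembly, had 6.83, 5.77 and 7.07 in shRras2 cells, against 5.21 ± 0.05 in pLKO cells (SD, n = 3). Its rise of 1.35 passed in only 1 of the 6 fits that left out an array, the one without shRras2 replicate 5, and the limma adjusted p reached 0.119 in the others. Myom1, the M-line protein myomesin, rose by 0.53 and passed in 2 of these 6, those without pLKO replicate 2 and shRras2 replicate 4. Unc45b, the muscle myosin chaperone gene, differed by 0.15 ± 0.11, Ttn by 0.21 ± 0.11 and the cardiac binding protein gene Mybpc3 by 0.01 ± 0.10 (SE), and none of these passed. All of these levels but those of Mybph, Myl1, Mylpf, Myl3 and Myl4 lay below 7.86 in both groups.

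Of 21 factors known to act on heavy chain genes, 3 rose and 0 fell (median 0.11), against 2.99% and 2.22% of all genes. Mef2c, a MEF2 factor of muscle, had 8.29, 8.26 and 8.19 in shRras2 cells, against 6.72 ± 0.12 in pLKO cells (SD, n = 3). Its rise of 1.52 was even over the knockdown arrays, unlike those of Myh3 and Myh8. Myog, which drives terminal differentiation of myoblasts, had 8.28, 7.59 and 8.15 in shRras2 cells, against 6.93 ± 0.20 in pLKO cells (SD, n = 3), a rise of 1.07, which without shRras2 replicate 6 was 1.00 and no longer passed (limma adjusted p = 0.0534). Ppargc1a, a coactivator linked to slow and oxidative fibres, rose by 0.80. Sox6, a repressor of slow fibre genes, differed by 0.14 ± 0.10, Nfix, which governs the switch to fetal myogenesis, by 0.18 ± 0.08, and Prox1, a slow-fibre regulator, by 0.01 ± 0.10 (SE), and none of these passed. Both means of Prox1 lay below 7.86 and both means of Sox6 below the negative-control median, so a change in either could be missed. Myod1 (0.68), Myf6 (-0.38) and Tead1 (-0.33) came nearer to the threshold without passing (limma adjusted p = 0.0743, 0.0601 and 0.0875). In each of these 3 the groups did not overlap, and both means of Myf6 lay below the negative-control median of 5.01.

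Among 19 genes for proteins that work with the non-muscle chains, 1 rose and 0 fell (median 0.10). Over all genes 2.99% rose and 2.22% fell, and counts as small as those in this paragraph cannot be set apart from these shares. The 1 that rose was the regulatory light chain gene Myl12b, by 0.47. Its call was kept in 2 of the 6 fits that dropped an array, those without pLKO replicate 2 and shRras2 replicate 5, with limma adjusted p reaching 0.0841. Ppp1r12a (0.31) and Myl9 (0.35) were higher without overlap of the groups and did not pass (limma adjusted p = 0.0598 and 0.127). Rhoa, Rock1 and Mprip, which control myosin phosphorylation, differed by 0.05 ± 0.07, 0.11 ± 0.10 and -0.06 ± 0.08 (SE) and did not pass. Among 22 unconventional myosins, many of which move cargo and membranes instead of forming filaments, 2 rose and 0 fell (median 0.01). Myo7a, a motor of stereocilia and retinal cells, rose by 0.86 and passed in all 6 fits that dropped an array, and Myo10, the filopodial motor, rose by 0.56 and passed in 0 of them, with limma adjusted p reaching 0.0887.

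**Figure D4:**
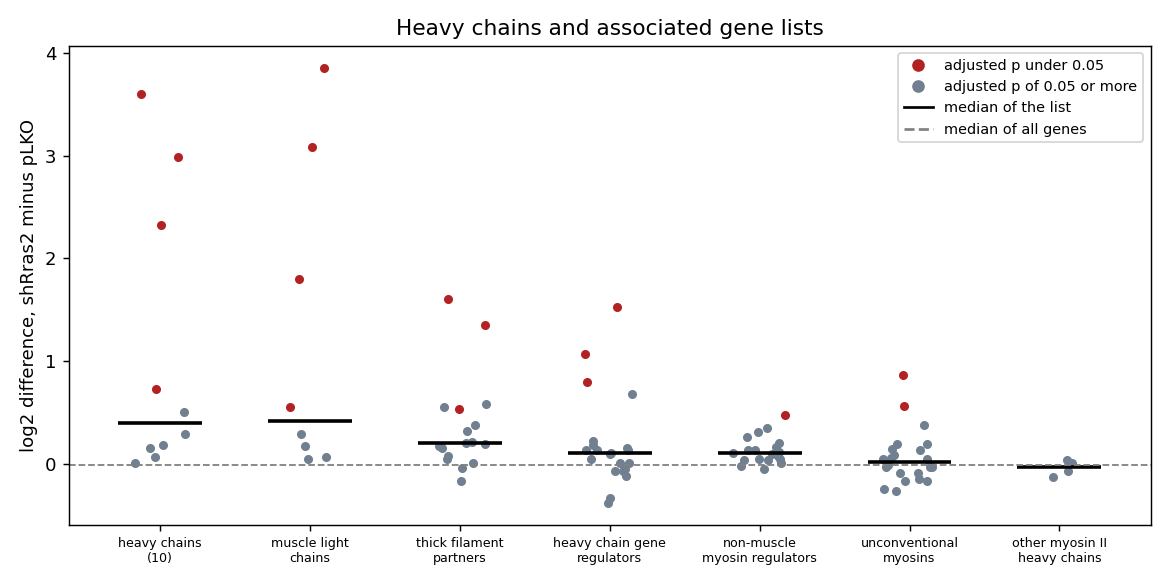
Log2 difference, shRras2 minus pLKO (y axis), of each measured gene in the heavy chain family and 6 associated lists, with list medians as bars and the median of all genes (-0.01) as a dashed line. The 3 largest heavy chain rises have counterparts of similar size only among the muscle light chains in these lists.

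Markers of muscle types moved beside the heavy chains as follows, where over all genes 2.99% rose and 2.22% fell. Of 16 skeletal muscle markers 10 rose and 0 fell (median 0.93), and their summed linear signal was 4204 to 7156 in shRras2 cells and 1871 to 1985 in pLKO cells. In bulk RNA, more cells of a type and more RNA per cell cannot be told apart. Mymx, which encodes the fusion micropeptide, differed by 0.00 ± 0.11 and Ckm by 0.15 ± 0.14 (SE), both below 7.86. The muscle stem cell markers Pax7 and Pax3 were at 9.38 ± 0.05 and 9.81 ± 0.08 in shRras2 cells, against 9.37 ± 0.08 and 9.74 ± 0.03 in pLKO cells (SD, n = 3 each). Of the 5 stem cell markers 3 had a mean above 7.86 in either group. Means of Myf5 and Cdh15 were below it, 5.48 and 5.84 in shRras2 cells and 5.37 and 5.69 in pLKO cells. Of the 5, 0 passed (summed signal 2043 to 2302 in shRras2 cells and 2022 to 2127 in pLKO cells). Of 10 cardiac markers only Tnnt2, which embryonic skeletal muscle also expresses, rose (by 1.52), and the other 9 lay below 7.86 in both groups. The summed signal of all 10 was 1099 to 1305 in shRras2 cells and 899 to 951 in pLKO cells. That sum includes Tnnt2, which had 9.21, 8.72 and 9.18 in shRras2 cells, against 7.64, 7.35 and 7.54 in pLKO cells. The other 9 were not summed apart, and the median difference of the 10 was -0.03. Of 8 smooth muscle markers only Synpo2 rose (by 0.64), and their sum was 30285 to 32629 in shRras2 cells and 26725 to 29424 in pLKO cells. The part of these shifts in the heavy chain differences was not tested.

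Across the shRras2 arrays, replicate 5 had the smallest rise of Myh3, Myh8, Myh1, Myh2, Myh4 and Myh7 and the highest remaining Rras2 signal, 48.1% of the pLKO mean, against 31.8% on replicate 4 and 34.6% on replicate 6. The Myh1 signal there was 3.65-fold that of the pLKO mean, against 6.34-fold and 5.49-fold on replicates 4 and 6. For Myh6 and Myh9, replicate 5 was instead the highest of the 3. With 3 knockdown arrays no relation between Rras2 and heavy chain signal can be tested. Among the controls, replicate 3 was highest for Myh3, Myh8, Myh1 and Myh7, and without it the rises of Myh3 and Myh8 were 3.76 and 3.18.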

How the data were processed

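The authors deposited 1 table of log2 signals per probe set for 6 arrays. Per the submitters' processing notes it comes from RMA and R 3.6.3, with the package version not given in the sources used here. RMA corrects background, quantile normalizes arrays and summarizes probes. Of 29129 probe sets, 6923 are controls, and 19572 of the 22206 transcript probe sets have 1 gene symbol in the platform annotation, 0 have several and 2634 have none. In 55 cases a gene had several probe sets and the brightest was kept, leaving 19505 genes. Entrez identifiers were all found in the RefSeq table of GRCm38.p6, which gave gene positions, while the array's own build is not stated.

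Groups were compared with limma 3.58.1 under R 4.3.3 (lmFit, then eBayes; two-sided; residual df 4, prior df 4.85; no covariates), and p-values were adjusted by Benjamini-Hochberg across all genes, with a threshold of 0.05. The method was tested on simulated data. Dim signals were judged against the 95th percentile (7.86) of 5222 negative-control probe sets, as detection calls were not at hand. The number of arrays limits the precision, with a median SE of 0.096.

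The members and lists were chosen with earlier results of these data known. Named genes are the 10 members, Rras2, the other 4 myosin II heavy chains, per list up to 4 rises and 4 falls past the threshold without overlap between groups, and the 5 profiles nearest to Myh3 and Myh8. Genes outside this rule, such as Myl2, Myl3, Unc45b, Ttn, Mybpc3, Sox6, Nfix, Prox1, Rhoa, Rock1, Mprip, Pax7, Pax3, Vim, Ckm, Mymx, Sco1 and Glp2r, were picked after their values were seen. The same holds for Myod1, Myf6, Tead1, Myf5, Cdh15, Cd14, Ppp1r12a and Myl9. Listed genes without a row were not analysed here. Alternatives were a second quantile normalization, median centring, cyclic loess, leaving out the 30% dimmest genes, testing every transcript probe set, averaging probe sets, trend with robust settings, array weights and leaving out each array.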

Additional observations from a re-analysis of the deposited data

How the results depend on the processing

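The rises of Myh3, Myh8 and Myh1 and the fall of Rras2 passed in all 8 alternatives and in all 6 fits without 1 array. Myh3 ranged from 3.45 to 3.90, Myh8 from 2.87 to 3.20, Myh1 from 2.16 to 2.56 and Rras2 from -1.59 to -1.29 in the fits without 1 array. The number of heavy chain genes past the threshold was 3 to 5 throughout, all of them higher. Myh7 did not pass under a second quantile normalization (adjusted p = 0.0562), median centring (0.0516) and every transcript probe set (0.0503), and was not among the genes kept when the 30% dimmest were left out. Trend with robust settings lost Smyd1 (0.055), Tnni1 (0.0745) and Col3a1 (0.0557), median centring and every transcript probe set lost Pdgfrb (0.0618 and 0.0524). Trend with robust settings called 1908 genes, 965 higher and 943 lower. Without 1 array the number ranged from 392 to 1136, with 280 to 684 higher and 112 to 452 lower; the cause was not tested.

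Signs turned only where the difference was near 0 and not past the threshold. Under a second quantile normalization, Myh11 was -0.014 and Myh14 -0.013, under median centring -0.038 and -0.036, and with array weights Myh14 was -0.0025 and Myh15 0.029. Over the fits that dropped an array, Myh11 ran from -0.087 to 0.077, Myh13 from -0.24 to 0.0074, Myh14 from -0.068 to 0.096 and Myh15 from -0.31 to 0.18. No paired analysis was possible because the groups share no replicate numbers. Of the 10 heavy chain genes, 5 had a mean above 7.86 in either group, and a change in the other 5 could be missed or understated.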

Other observations

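Among the other skeletal muscle markers, Mymk, Acta1, Tnnt3, the fast troponin T, and Tnni1, the slow troponin I, had the largest rises, of 3.00, 2.78, 1.87 and 1.85 on the log2 scale. When an array was dropped, Tnni1 passed in 4 of the 6 fits, failing without pLKO replicate 3 and without shRras2 replicate 6 (limma adjusted p reaching 0.0569), and the other 3 genes in all 6. Of 11 fibroblast markers 4 rose and 0 fell (median 0.19), against 2.99% and 2.22% of all genes. These were the matrix genes Dcn by 0.76, Col3a1 by 0.69 and Col5a1 by 0.46 and the receptor gene Pdgfrb by 0.37. Dcn, Col3a1 and Col5a1 each passed in 2 of these 6 fits and Pdgfrb in 1, each time including the fit without shRras2 replicate 5, with limma adjusted p reaching 0.0943, 0.116, 0.136 and 0.166. The summed fibroblast signal was 23450 to 24483 in shRras2 cells and 21878 to 22914 in pLKO cells.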
